A study of Mus musculus with 23 samples.

Results

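Fetal mammary stem cells (fMaSC), sorted from the mammary rudiment at embryonic day 18, were compared with basal cells sorted from the adult mammary gland. Each population gave 2 libraries, so the comparison rests on 4 of the 23 RNA-seq libraries of the series, chosen by their titles. All came from wild type glands of the C57BL6J strain. The labels state no age for the adult cells and point to a paper for the sort markers. Adult luminal progenitors and mature luminal cells of the same strain, with 2 libraries each, were in the same fit and serve to separate what is fetal, what is basal and what is shared with luminal cells. Each library was made from approximately 2000 cells, so every value is a mean over a sorted population, and a difference in the make-up of that population and a difference in RNA per cell cannot be told apart. The study's design text calls libraries of a population biological replicates, and the labels do not say which animals, or how many, stand behind a library.

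The adult gland is a bilayer. Basal cells, most of them contractile myoepithelial cells that eject milk, lie on the basement membrane and carry keratins 5 and 14 and the transcription factor p63, and luminal cells line the duct and either make milk or sense ovarian hormones. The late fetal rudiment is a small branching epithelium in which single cells carry basal and luminal products together. Fetal mammary stem cells are defined by their power to regenerate a whole gland on transplantation, and they divide rapidly, whereas most cells of the resting adult gland do not.

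Values are RPKM, read counts scaled to gene length and to the reads of the library. Where 2 values of a population are given they are library 1 and library 2, in that order. Fold changes are differences of the mean log2(RPKM + 1), fMaSC minus adult basal cells, with the standard error, and a gene is called higher or lower at a limma adjusted p under 0.05. Libraries were left out 1 at a time, so "without either" of a pair means without the one and, separately, without the other. Such a fit leaves 1 library in that population, whose spread is then not measured, and its p-values rest on the other populations. The basal pair was the most spread, with a median SD of 0.33 against 0.09 in fMaSC. Calls made without 1 basal library are therefore descriptions of that fit. On this scale 1 unit is a doubling, and changes of genes near 0 are understated.

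Of 24391 genes in the table, 12553 reached 1 RPKM in at least 2 of the 8 normal libraries and were tested. Of these, 4628 (36.9%) were higher and 2941 (23.4%) lower in fMaSC, and 4984 were not called. By 1 or more log2 units, 3779 were higher and 2281 lower. In each of the 7569 called genes both fMaSC libraries lay on 1 side of both basal libraries, which was also true of 79.6% of all genes tested. The counts of higher and of lower genes were smaller without library 1 and without library 2 of fMaSC. The median gene was 0.27 higher in fMaSC. Changes are read against that shift, and counts within gene lists against the shares of 36.9% and 23.4%. Scaling by quantiles or by median-of-ratios factors moved the median to -0.02 and 0.03, and the split to 3718 higher against 3809 lower and to 3820 against 3570.

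The libraries differed in ways that touch these results. The number of genes at 1 RPKM or more ran from 10056 to 11349 per library. The most frequent ratio between low values gave fMaSC depths of 1.61 and 1.51 relative to the deepest mature luminal library and basal depths of 0.737 and 0.614. The fMaSC pair was very close, with 0.964% of tested genes more than 2-fold apart, against 19.5% in the basal pair. Transcript length moved with the comparison. With the genes in 5 equal classes of length, the median change was 0.84 among the shortest, with transcripts of up to 1832 bases, and -0.53 among the longest, from 5221 bases. The corresponding medians against luminal progenitors were 0.67 and 0.12. What length contributes was not tested, and the comparison was also run with the length trend of each library removed, an alternative chosen after seeing the data. That left 3442 genes higher and 3694 lower. The nuclear RNA Malat1 took 3.5% and 5.88% of the summed RPKM of the basal libraries and was the largest single gene in each adult library, at 18702 and 30192 RPKM in basal cells against 3256 and 2610 in fMaSC.

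**Figure D1:**
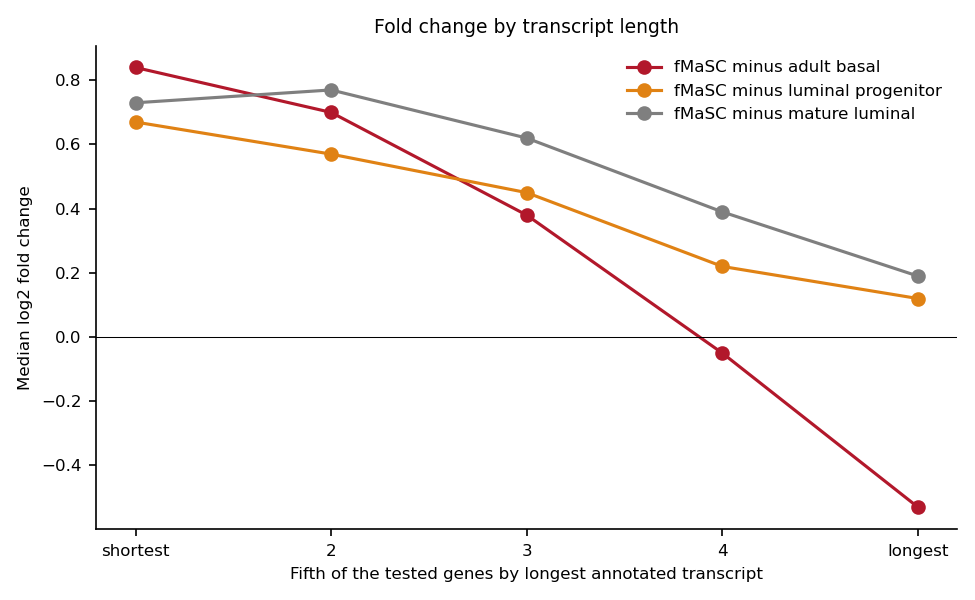
Median log2 fold change (vertical axis) of the tested genes in 5 equal classes of transcript length (horizontal axis, shortest to longest), for fMaSC against each adult population. The line against adult basal cells falls from 0.84 to -0.53 and crosses 0; those against luminal cells fall less and stay above 0.

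The populations carried most markers their names call for, with differences in degree, though Oxtr differed widely between the basal libraries, as given below. In adult basal cells Krt5 stood at 65.9 and 30.0 RPKM, Krt14 at 1213 and 532, Trp63, which encodes p63, at 34.1 and 60.8, Acta2 at 306 and 135 and Myh11 at 70.5 and 41.5. Keratins of the luminal layer were not absent from these basal libraries, with Krt8 at 762 and 437 RPKM against 3076 to 5328 in the 4 luminal libraries. In fMaSC members of both sets were present, at unlike levels. Of the basal markers above, Krt5, Krt14, Trp63 and Myh11 were lower than in basal cells and Acta2 higher. Myh11 stood at only 0.687 and 0.63 RPKM. The luminal keratins Krt7 and Krt19 were also lower than in basal cells, Krt7 at 1.58 and 2.91 RPKM. Krt14 stood at 107 and 112 RPKM, Krt8 at 659.6 and 672, Epcam at 1294 and 1271, Itga6 at 157 and 155, Cd24a at 616 and 613, and Sox10, a factor of the neural crest and of fetal mammary cells, at 24.2 and 26.2.

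Genes of 4 kinds were separated by their levels in all 4 populations, with a change of at least 1 log2 unit and an adjusted p under 0.05 in each contrast used (the component rule). Fetal genes, higher in fMaSC than in each of the 3 adult populations, numbered 2076 (16.5% of the genes tested), and made up 54.9% of the genes higher by 1 or more. Adult genes, lower in fMaSC than in each, numbered 560 (4.46%). Basal lineage genes, higher in adult basal cells than in both luminal populations, numbered 1562 (12.4%). Genes higher both in fMaSC and in at least 1 luminal population than in adult basal cells numbered 1219 (9.71%), of which 315 were also fetal. The contrasts share libraries, so these counts are descriptions and carry no test of their own. Fetal genes took 22.6% and 22.5% of the summed RPKM of the fMaSC libraries and between 4.15% and 5.52% in the adult libraries. The rule chose genes high in these same fMaSC libraries, so the larger share there follows from it. Under the length correction there were 1153 fetal genes, 1107 of them among the 2076, and 984 adult genes.

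**Figure D2:**
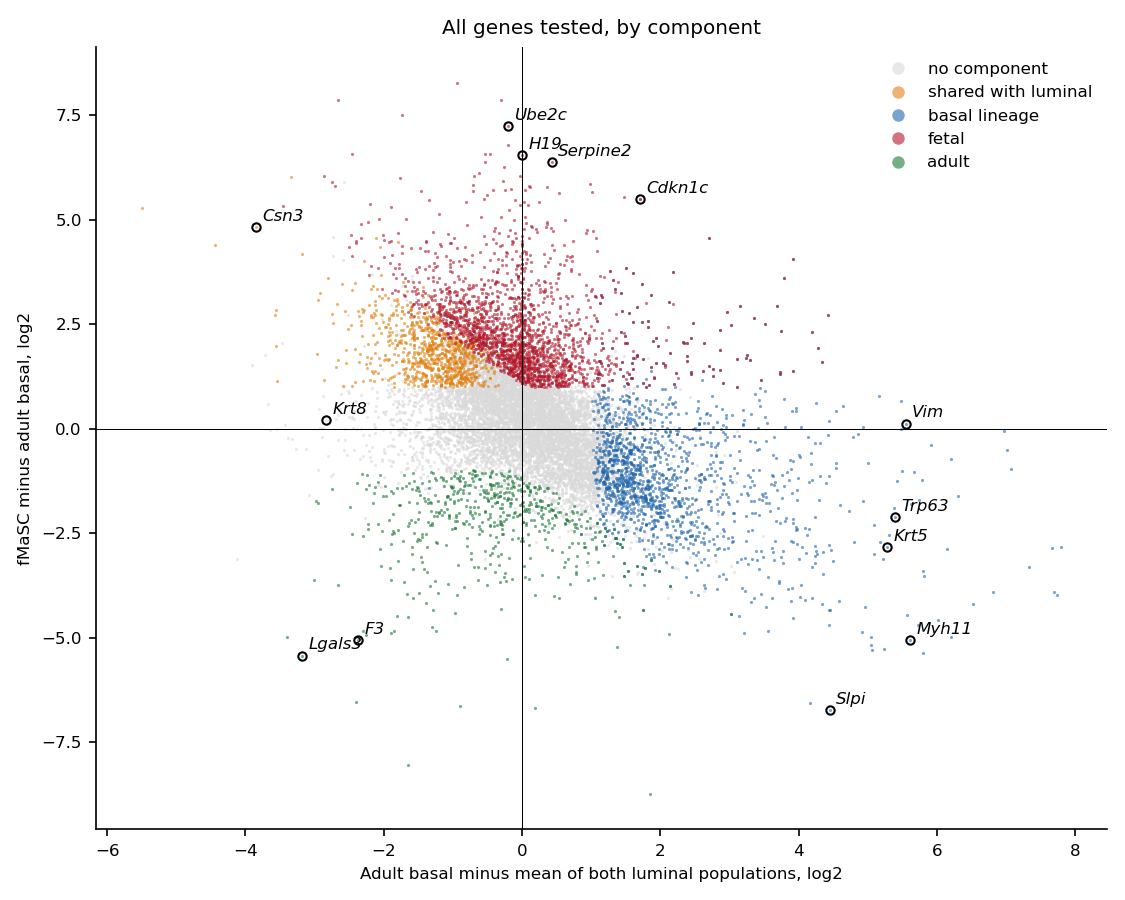
Each point is 1 of 12553 genes, placed by adult basal minus the mean of both luminal populations (horizontal axis, log2) and by fMaSC minus adult basal (vertical axis, log2), and coloured by component. The edges of the colours follow from the rules, and basal lineage genes on the right spread from Slpi, far lower in fMaSC, through Vim, about level, to Cdkn1c, far higher.

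Nearly all cell cycle genes on the lists were higher in fMaSC. Of 55 mitosis genes tested, 53 were higher in fMaSC and none lower, with a median change of 3.88, and of 50 DNA replication genes 47 were higher and none lower, with a median of 3.16, beside 0.27 for all genes. Ube2c, the ubiquitin-conjugating partner of the anaphase-promoting complex, stood at 219.7 and 209 RPKM in fMaSC and at 0.728 and 0.186 in basal cells (7.23 ± 0.27, adjusted p = 1.3e-05). Cdk1, the kinase that starts mitosis, stood at 106 and 106 RPKM against 0.494 and 0.0943 (6.38 ± 0.29, adjusted p = 1.8e-05). Both were near 0 in all 6 adult libraries, the highest value being 1.74 RPKM for Ube2c in luminal progenitors.

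Other parts of the mitotic machinery were likewise higher. Aurkb, the kinase of the chromosomal passenger complex, stood at 97.2 and 91.6 RPKM in fMaSC and was listed at 0 in both basal libraries. Its partner Cdca8, which encodes borealin, stood at 104 and 94.6 RPKM against 0.138 and 0. Cdc20, the activator of the anaphase-promoting complex, stood at 86.1 and 88.6 RPKM against 0 and 0.646, and the centromeric histone Cenpa at 157 and 138 against 2.59 and 0.398. Mki67, the common proliferation marker, named here after its values were seen, stood at 37.1 and 38.9 RPKM against 2.71 and 2.99 in basal cells and at 0.747 or less in the luminal libraries. In each of these genes both fMaSC libraries lay above all 6 adult libraries. Only Pttg1, which encodes securin, and the cyclin F gene Ccnf were not called on the mitosis list. Pttg1 stood at 21.8 and 20.1 RPKM in fMaSC against 18 and 13.7, and Ccnf at 3.13 and 4.6 against 0.834 and 2.77. Mad2l1, the spindle checkpoint gene, passed the test (1.02 ± 0.23, adjusted p = 0.00695) at 86.8 and 86.4 RPKM against 53.4 and 33.5, but was far higher in mature luminal cells, at 550.3 and 546, and was chosen after its values were seen. Mad2l1 missed the threshold without library 1 of fMaSC (adjusted p = 0.0507).

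On the replication side Tk1, thymidine kinase, stood at 51.6 and 50.0 RPKM in fMaSC and was listed at 0 in both basal libraries. Tyms, thymidylate synthase, stood at 65.9 and 58.2 RPKM against 1.05 and 1.91 (4.69 ± 0.25, adjusted p = 2.6e-05), and Rfc2, a subunit of the clamp loader, at 152 and 164 against 6.02 and 4.53. Gins1, part of the replicative helicase, stood at 36.3 and 39 RPKM against 1.93 and 0. For the polymerase genes Pold2 and Pole the basal libraries read 7.19 and 0 and 2.68 and 0 RPKM, so that their fold changes rest on a single basal library. Cdc7, a kinase that fires origins, and Slbp, which binds histone messages, were not called, with changes of 1.34 and 0.69. Altogether 97 of the 105 cycling genes tested met the fetal rule, and the other 1979 fetal genes were outside the lists. Of the 15 largest rises of all genes, 6 were on the cycling lists, and 2 more are known parts of the same machinery, 2810417H13Rik, a PCNA-associated factor, and Pmf1, a kinetochore subunit.

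Promoters of these genes carry known cell-cycle motifs. The cell cycle genes homology region, CHR, written TTTGAA, and the CCAAT box are bound by complexes that time mitotic genes, and E2F sites, searched as TTTCCCGC or TTTGGCGC, time replication genes. Promoters were taken from RefSeq on build GRCm38.p6 as 250 bases before to 50 bases after the start, searched on both strands, and found for 45 of 55 mitosis and 41 of 50 replication genes. CHR was present in 71.1% of mitosis genes, 19.5% of replication genes and 20.2% of all genes in the reference. CCAAT was present in 75.6%, 58.5% and 41.1%, and both together in 64.4%, 9.76% and 7.97%. The E2F words were present in 4.44%, 26.8% and 1.8%. Of the 12553 genes tested, 9810 had such a promoter, fewer than 80%, and among these CHR was present in 14.3%, CCAAT in 43.3%, both in 5.95% and the E2F words in 3.51%. Shown are the 200 bases before the start of the mitosis genes Ube2c and Cdk1, the pair with the largest rises that hold CHR and CCAAT there, and of Mcm5 and Mcm7, helicase subunits with the largest rises among replication genes with an E2F word in that stretch. Capitals mark CHR and CCAAT, or their complements TTCAAA and ATTGG, in the first pair and the E2F word, as its complement, in the second.
Ube2c, chr2:164769729-164769928, plus strand: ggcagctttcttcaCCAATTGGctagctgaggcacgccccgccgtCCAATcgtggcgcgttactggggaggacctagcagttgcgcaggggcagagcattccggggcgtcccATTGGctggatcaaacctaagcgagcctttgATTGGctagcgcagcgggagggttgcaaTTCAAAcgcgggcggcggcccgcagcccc
Cdk1, chr10:69352913-69353112, minus strand: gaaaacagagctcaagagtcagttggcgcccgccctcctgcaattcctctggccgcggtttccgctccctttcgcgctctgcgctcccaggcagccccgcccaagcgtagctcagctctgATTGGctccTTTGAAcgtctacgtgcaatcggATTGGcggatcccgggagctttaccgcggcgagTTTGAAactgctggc
Mcm5, chr8:75109309-75109508, plus strand: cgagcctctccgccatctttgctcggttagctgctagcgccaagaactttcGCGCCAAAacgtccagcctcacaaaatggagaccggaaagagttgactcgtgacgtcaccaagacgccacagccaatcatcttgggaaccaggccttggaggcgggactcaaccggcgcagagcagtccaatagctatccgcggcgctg
Mcm7, chr5:138171884-138172083, minus strand: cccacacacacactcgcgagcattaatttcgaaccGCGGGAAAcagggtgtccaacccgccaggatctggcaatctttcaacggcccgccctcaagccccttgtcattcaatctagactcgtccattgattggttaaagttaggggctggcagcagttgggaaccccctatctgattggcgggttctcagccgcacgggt
The CHR nearest the start lay 29 bases before it in Ube2c, on the opposite strand, and 15 bases before it in Cdk1. In Ube2c a CCAAT box and its complement overlap at the start of the run of capitals. The E2F word began 149 bases before the start in Mcm5 and 165 in Mcm7. Mcm5 stood at 62 and 60.6 RPKM in fMaSC against 1.85 and 1.73 in basal cells, and Mcm7 at 47.5 and 47.5 against 3.14 and 3.45. Both were named by this promoter rule, after their values were seen. A match is a description of the sequence and not evidence of binding.

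Regulators of the G1 phase were mixed, with 9 of 20 genes higher and 2 lower, beside 36.9% and 23.4% of all genes tested. Cdk4, the kinase that D cyclins activate, stood at 961 and 974 RPKM in fMaSC against 38.6 and 35.9 (4.66 ± 0.25, adjusted p = 2.7e-05). Ccnd1 stood at 158 and 143 RPKM against 15 and 32.8, and Ccnd2 at 183 and 180.4 against 22.1 and 31.8. Ccnd2 was nearly absent from luminal libraries, at 0.496 or less, and it met the basal lineage rule. Among inhibitors, Cdkn1c, an imprinted gene for p57, was also higher and rose from 4.62 and 3.52 RPKM to 206 and 247 (5.49 ± 0.24, adjusted p = 1.6e-05). Cdkn2b, encoding p15, stood at 12.5 and 11.2 RPKM against 0.957 and 0. Cdkn1a, encoding p21, was not called, at 109 and 103 RPKM against 179.7 and 79.2, nor was Cdkn1b, at 5.64 and 6.4 against 13.7 and 4.11. Btg1 and Ccng2, genes linked to quiescence, were lower, Btg1 at 193 and 222 RPKM against 394 and 367. Without library 1 of fMaSC Btg1 alone was lower on this list, with an adjusted p of 0.0995 for Ccng2, and without library 2 of basal cells 4 genes were lower, Cdkn1a and Cdkn1b among them.

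**Figure D3:**
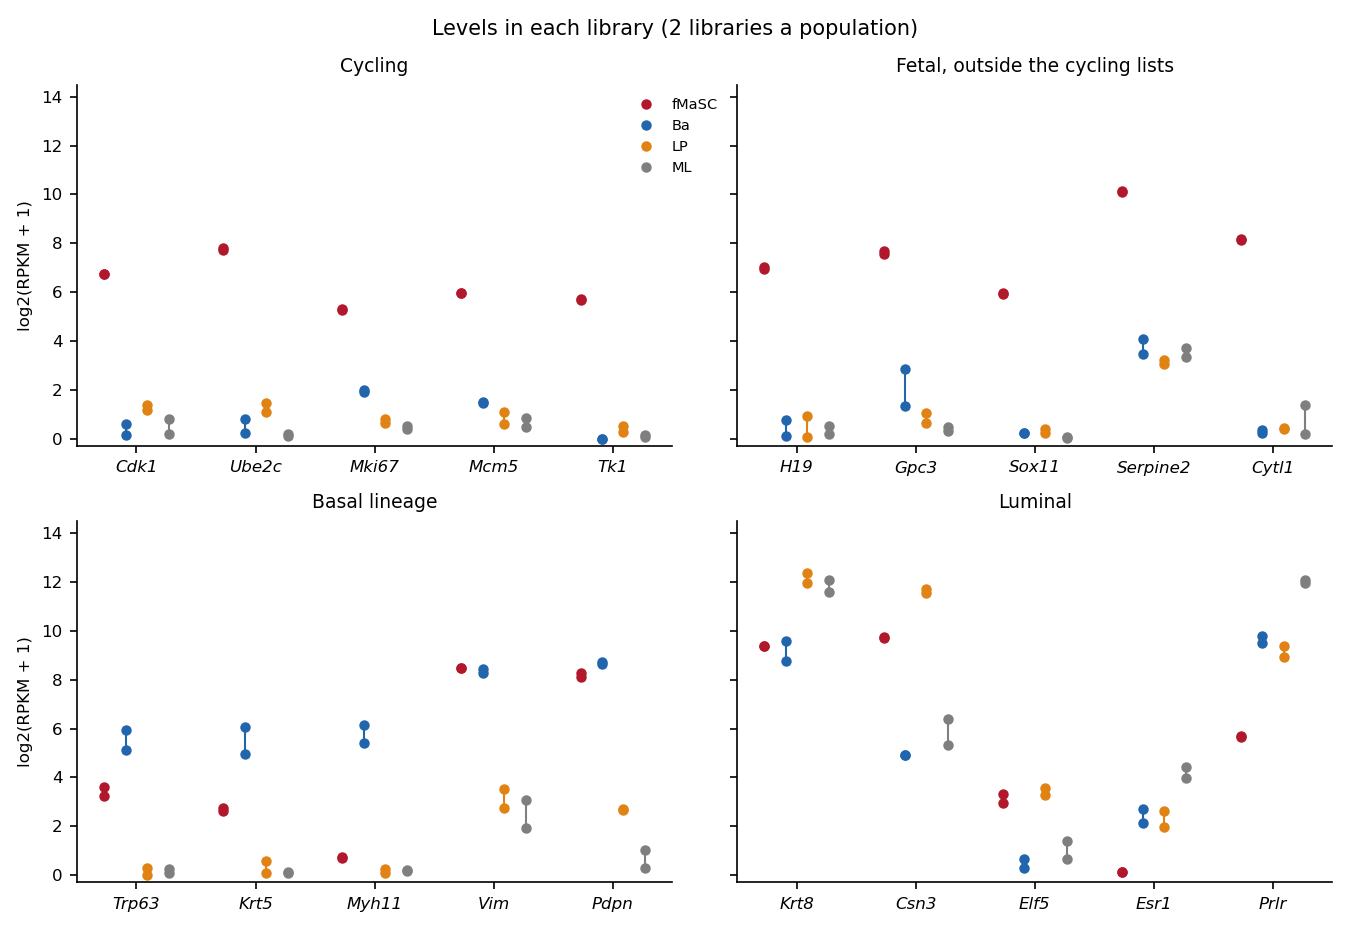
Level of 20 genes in every library, as log2(RPKM + 1) on the vertical axis, in 4 panels by kind of gene; points are libraries, lines join the 2 of a population. Cycling and fetal genes separate fMaSC from all adult libraries. Trp63, Krt5 and Myh11 lie between or far below the basal level, and Vim and Pdpn lie near it without overlap of libraries. Esr1 and Prlr are lowest in fMaSC.

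Outside the cycle, the fetal component held imprinted growth genes, cartilage-type matrix and several developmental factors, but not these alone. The fetal rule was met by 15 of 25 imprinted, 6 of 8 cartilage-type matrix, 5 of 18 bud and 4 of 9 oncofetal genes. It was also met by 37 of 78 respiratory chain and ATP synthase, 12 of 19 glycolysis and 12 of 26 sterol and fatty acid genes. The 10 leading genes outside the cycling lists included the casein gene Csn1s1, the red cell gene Hba-a2 and the fat cell gene Car3. Of 25 imprinted genes tested 18 were higher and 3 lower, with a median change of 2.07. The list holds 33 genes, and the others missed the filter. A gene could pass it through its 2 fMaSC libraries alone, which favours rises in this and other list counts. H19, a noncoding RNA of fetal tissues, stood at 129 and 121 RPKM in fMaSC and at 0.923 or less in every adult library (6.55 ± 0.36 against basal cells, adjusted p = 2.7e-05). Mest stood at 156 and 158 RPKM against 2.68 and 1.02, and Ndn, encoding necdin, at 25.2 and 23.7 against 1.23 and 0. Nnat, encoding neuronatin, stood at 46.3 and 42.9 RPKM against 3.47 and 1.26, and Grb10, an adaptor that dampens insulin receptor signals, at 82.1 and 84.7 against 10.8 and 14.9. Igf2, the growth factor that shares a locus with H19, was far scarcer, at 2.01 and 2.05 RPKM against 0 and 0.0322, and is named after its values were seen. Not every imprinted gene followed. Kcnq1ot1, the long noncoding RNA of the Cdkn1c locus, was lower, at 22.7 and 21.5 RPKM against 127 and 232 (-2.90 ± 0.32, adjusted p = 3.2e-04), while Cdkn1c itself was higher. Gnas and Impact were not called, with changes of 0.43 and -0.30.

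Imprinted genes in part marked the basal side. Of the 25 tested, 8 met the basal lineage rule. Meg3, Rian and Mirg, noncoding RNAs of 1 imprinted cluster and named here after their values were seen, stood in adult basal cells at 2.07 to 12.8 RPKM and in the luminal libraries at 0.0669 or less. In fMaSC they stood at 14.6 to 46.5 RPKM and were all called higher.

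Among developmental and oncofetal genes, the factor Sox11 stood at 62.1 and 59.1 RPKM in fMaSC and at 0.321 or less in each adult library (5.71 ± 0.20 against basal cells, adjusted p = 1.3e-05). Gpc3, a glypican of fetal tissues, stood at 190.0 and 204 RPKM against 6.2 and 1.51 in basal cells. The RNA-binding proteins Igf2bp1, Igf2bp2 and Igf2bp3 stood at 5.17 to 17.7 RPKM against 1.3 or less. Lin28a, Lin28b, Sall4 and Afp, also oncofetal genes, were listed at 0 in all 8 libraries, and Hmga2 was not called, at 9.85 and 10.1 RPKM against 4.15 and 14.8. In all, 5 of 9 oncofetal genes tested were higher and none lower, and 2 were lower without library 1 of basal cells. Without library 2 of basal cells Hmga2 changed by 1.09. The oncofetal list holds 15 genes, and passing the filter through the 2 fMaSC libraries alone favours rises in its count too.

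Genes of the embryonic mammary bud divided, with 7 higher and 6 lower of 18, beside 36.9% and 23.4% of all genes tested. Sox10 rose from 4.41 and 8.31 RPKM to 24.2 and 26.2 (1.88 ± 0.42, adjusted p = 0.00634). Pthlh, the peptide hormone with which bud epithelium signals to its mesenchyme, stood at 51.4 and 51.6 RPKM against 9.51 and 6.78, and the secreted antagonist Sostdc1 at 30.5 and 29.6 against 5.32 and 1.72. In the other direction Wnt10a stood at 1.95 and 1.45 RPKM against 20.6 and 15.3, and Msx2 at 6.87 and 4.9 against 60.2 and 21.9. Sox9 and Sox4 were also lower, Sox9 at 57.5 and 67.3 RPKM against 242 and 168. Tbx3, Trps1 and Tfap2c were not called, with changes of -0.07, -0.03 and -0.51. Without library 2 of fMaSC 4 genes were higher, and Sox10 and Msx2 missed the threshold (adjusted p = 0.0571 and 0.0527).

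Cartilage-type matrix genes rose in 7 of 8 tested. The list holds 17 genes, and the others missed the filter. A gene could pass the filter through its 2 fMaSC libraries alone, which by itself favours rises in such a count. Of the 8 tested, 4 also met the basal lineage rule. Lect1, encoding chondromodulin, had the largest rise of all genes, from 0 and 0.394 RPKM to 367 and 364 (8.28 ± 0.46, adjusted p = 3.0e-05). Cytl1, which encodes a secreted protein and is not on this list, stood at 289 and 282 RPKM against 0.184 and 0.263 (7.87 ± 0.37, adjusted p = 2.0e-05). Col9a1 stood at 35 and 32.9 RPKM against 1.7 and 1.27, and Col9a3 at 39.4 and 42.1 against 9.8 and 11.1. Acan, Comp and Matn1, major products of cartilage itself, were listed at 0.0942 RPKM or less in the fMaSC libraries. Serpine2, a secreted protease inhibitor, was the most abundant of the leading fetal genes, at 1142 and 1102 RPKM against 9.95 and 15.9 in basal cells and 7.33 to 12 in luminal cells.

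Polycomb and DNA methylation genes were mixed, with 8 higher and 6 lower of 19, beside 36.9% and 23.4% of all genes tested. Ezh2, the polycomb methyltransferase of dividing cells, was higher, at 37.7 and 39.8 RPKM against 9.64 and 16.8, and its paralogue Ezh1 lower, at 2.59 and 3.73 against 10.7 and 13.1. Cbx8 was higher and Cbx7 lower, at 1.81 and 2.01 RPKM against 10.2 and 7.16. Tet1 was higher, at 2.12 and 1.94 RPKM against 0.853 and 0.368, and Tet2 lower, at 3.46 and 4.73 against 23.6 and 12.8. Hells, a remodeller of replicating chromatin, had the largest rise of this list, from 0.305 and 1.44 RPKM to 28.5 and 23.8. The core subunits Suz12 and Eed were not called, with changes of -0.03 and -0.19. Without library 1 of fMaSC 5 genes were higher, as under both other scalings, and Cbx8 missed the threshold without either fMaSC library or library 1 of basal cells (adjusted p = 0.067 to 0.127).

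The basal lineage component was divided in fMaSC. Of its 1562 genes, 869 (55.6%) were lower in fMaSC than in adult basal cells by 1 or more, 583 (37.3%) did not pass by 1 or more in either direction, and 110 (7.04%) were higher. Read against luminal cells, fMaSC exceeded both luminal populations in 557 (35.7%), and 774 (49.6%) were lower than in basal cells without exceeding both. Over the whole component the median change was -1.18 against adult basal cells and 0.60 and 0.89 against luminal progenitors and mature luminal cells. The rule chose genes high in these same basal libraries and low in the luminal ones. That by itself favours falls against basal cells and rises against luminal cells, so these figures are descriptions. Of all 12553 genes tested, 2281 were lower and 3779 higher by 1 or more. The component took 6.7% and 6.96% of the summed RPKM in fMaSC, 15.3% and 16.6% in basal cells and 2.71% to 4.24% in luminal libraries. Transcripts of the component were long, with a median of 4387 bases against 3293 for all genes tested, and 1158 genes met its rule under the length correction, of which 1063 were among the 1562.

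Regulators and keratins of the layer were lower or not called, with few exceptions. Of 13 basal transcription factors tested 8 were lower and none higher. Trp63 stood at 8.46 and 11.2 RPKM in fMaSC against 34.1 and 60.8 (-2.11 ± 0.32, adjusted p = 0.00119), and at 0.207 or less in luminal cells. Id4, an inhibitor of helix-loop-helix factors, stood at 4.37 and 4.84 RPKM against 34.4 and 65.2 (-3.11 ± 0.31, adjusted p = 2.1e-04). Snai2, encoding Slug, was not called, at 79.8 and 73.9 RPKM against 62.2 and 36.6, with 0.192 or less in luminal cells, and the effector Yap1 was not called, at 54.1 and 53.7 against 64.8 and 74.8. Without library 1 of basal cells Snai2 changed by 1.05.

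Of 15 keratin and hemidesmosome genes 11 were lower and 2 higher. Krt5 stood at 5.08 and 5.69 RPKM in fMaSC against 65.9 and 30.0 (-2.84 ± 0.38, adjusted p = 7.0e-04), Krt14 at 107 and 112 against 1213 and 532, Krt17 at 42.2 and 36.7 against 873 and 425, and Krt15 at 6.06 and 5.89 against 134 and 119. Each of these 4 keratins was thus lower, yet all but Krt15 lay above every luminal library. Lamb3, a chain of the laminin that hemidesmosomes bind, stood at 5.73 and 3.7 RPKM against 91.8 and 67.1, and the linker Dst at 1.01 and 1.15 against 25.4 and 24.2. The integrin chains of the hemidesmosome differed from these, with Itga6 not called and Itgb4 higher, at 13 and 13.8 RPKM against 7.17 and 7.66. Neither gene called higher on the list passed without library 1 or library 2 of fMaSC. Itga6 changed by -1.62 without library 1 of basal cells.

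The contractile apparatus was split, with 12 genes lower and 6 higher of 22. Myh11, smooth muscle myosin, stood at 0.687 and 0.63 RPKM in fMaSC against 70.5 and 41.5 (-5.06 ± 0.28, adjusted p = 2.8e-05). Mylk, the kinase that switches that myosin on, stood at 5.66 and 4.93 RPKM against 155 and 83.2, and Tagln at 28.8 and 27.5 against 729 and 128. Acta2, smooth muscle actin, ran the other way, at 621 and 608 RPKM against 306 and 135 (1.59 ± 0.38, adjusted p = 0.00884), as did Actg2, at 26 and 23.8 against 8.68 and 3.05, and Myl9, at 49.9 and 45.1 against 30.9 and 9.9. All of Acta2, Actg2, Myl9, Myh11 and Mylk met the basal lineage rule. The basal libraries were far apart in several of these genes, and 2 genes of the list were called higher under the length correction, 1 without library 1 of fMaSC, 2 without library 2 of fMaSC, and 3 without library 2 of basal cells or either mature luminal library. Acta2 had adjusted p values of 0.0654 and 0.0616 without library 1 and library 2 of fMaSC, and Myl9 missed the threshold without any library but the first basal one (adjusted p = 0.0571 to 0.169). Oxtr, the oxytocin receptor through which milk ejection is triggered, was not called, at 9.87 and 11.1 RPKM against 29.1 and 5.89. Its direction rested on the basal library used, with a change of 0.73 without library 1 and -1.39 without library 2.

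Basement membrane genes were split, with 4 higher, 6 lower and 8 not called of 18, and a median of -0.07. Of all genes tested 36.9% were higher and 23.4% lower. Under the length correction 7 were higher and 4 lower, with a median of 0.30. Col4a1 stood at 59.8 and 59.8 RPKM in fMaSC against 57.4 and 58.9 (0.04 ± 0.23, adjusted p = 0.895), with 1.54 or less in luminal cells. Lamc1 stood at 507 and 505 RPKM against 332 and 483 and was not called, with a change of 0.61 without library 2 of basal cells. Lama4 was higher, at 82.8 and 87.8 RPKM against 3.61 and 15.8, and Fbln1 at 51.1 and 55.3 against 2.46 and 0.541, while Col4a5, Col7a1 and Lamb2 were lower.

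Among the 583 basal lineage genes that did not pass by 1 or more, those most abundant in basal cells included Nedd4, Ifitm3, Gja1, Icam1, Pdpn and Vim. Vim, the intermediate filament of mesenchymal and basal cells, stood at 352 and 360.5 RPKM in fMaSC and 349.7 and 307 in basal cells (0.12 ± 0.40, adjusted p = 0.808), against 2.77 to 10.5 in luminal cells. Pdpn, podoplanin, stood at 272 and 305 RPKM against 401 and 423, and at 0.231 to 5.54 in luminal cells. Nedd4, a ubiquitin ligase, was called higher by less than 1 unit, at 2376 and 2484 RPKM against 1725 and 1203, and Gja1, a gap junction protein, lower by less than 1 unit (-0.84 ± 0.19, adjusted p = 0.00699). Gja1 missed the threshold without library 1 of fMaSC (adjusted p = 0.0557) and Nedd4 without either fMaSC library or library 2 of basal cells (adjusted p = 0.0989 to 0.144), while Pdpn was lower without either mature luminal library (adjusted p = 0.0414 and 0.0423).

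The 110 basal lineage genes that were higher still in fMaSC were led by Cdkn1c. Emid1 stood at 232 and 230.2 RPKM against 8.55 and 8.95, Igfbp2 at 296 and 289.5 against 29.1 and 9.34, and the fibrillin gene Fbn2, an elastic fibre protein of development, at 90.2 and 98.7 against 2.83 and 12.4. At the other end Slpi, a secreted protease inhibitor, had the largest fall in the lineage, from 396 and 392 RPKM to 3.11 and 2.37 (-6.73 ± 0.34, adjusted p = 2.4e-05). Pappa, a protease that cleaves IGF-binding proteins, fell from 26.7 and 121 RPKM to 0.203 and 0.673. Ctgf, a matricellular target of YAP, fell from 1034 and 411 RPKM to 17.9 and 21.7. Scn7a, a sodium channel, stood at 35.8 and 40.0 RPKM in basal cells and was listed at 0 in fMaSC.

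Several genes of the secretory luminal branch were higher in fMaSC than in adult basal cells, and most genes of the hormone-sensing branch lower. Of 17 luminal progenitor and secretory genes 10 were higher and 3 lower, and of 15 hormone-sensing genes 11 were lower and none higher. Csn3, kappa casein, stood at 846 and 856 RPKM in fMaSC, 29.1 and 29 in basal cells and 2966 and 3388 in luminal progenitors. Csn1s1, alpha casein, stood at 233 and 233 RPKM, was listed at 0 in both basal libraries, and was above its 24.2 and 50.4 in luminal progenitors. Aldh1a3, a retinaldehyde dehydrogenase of progenitors, stood at 118 and 122 RPKM against 3.37 and 6.61 (4.40 ± 0.28, adjusted p = 4.3e-05), and the secretory factor Elf5 at 8.87 and 6.68 against 0.598 and 0.227. The 3 lower genes were Itga2 and 2 genes of innate defence. Of these, Cd14 stood at 3.32 and 2.4 RPKM against 14.3 and 9.74 and Ltf, lactoferrin, at 0.426 and 0.178 against 4.72 and 5.02. Defence genes did not all go this way. On the secreted defence list, described below, Lbp and Lcn2 were higher, and Wfdc18, Saa1 and Cfb were not called.

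Esr1, the oestrogen receptor, stood at 0.0886 and 0.104 RPKM in fMaSC against 5.46 and 3.42 in basal cells and 20.7 and 14.6 in mature luminal cells (-2.28 ± 0.33 against basal cells, adjusted p = 9.1e-04). Pgr, the progesterone receptor, stood at 5.86 and 3.9 RPKM against 57 and 57, and Prlr, the prolactin receptor, at 50.3 and 49.5 against 879.6 and 732. Mature luminal cells held up to 264 RPKM of Pgr and 4291 of Prlr, so these transcripts were highest outside the basal layer. Whether some of the basal signal came from luminal cells in the sort was not tested. Foxa1 was not called, at 7.04 and 8.05 RPKM against 16.7 and 6.39, and changed by -1.05 without library 2 of basal cells. Of the 15 hormone-sensing genes 9 met the adult rule.

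Junction and keratin genes of the luminal layer were mixed, with 8 higher and 5 lower of 22, near the 36.9% and 23.4% of all genes tested. Under the length correction 5 were higher and 8 lower. The higher numbered 3 without library 1 of fMaSC and 2 without library 2, and the lower 8 without library 2 of basal cells. Cldn7 stood at 173 and 185 RPKM in fMaSC against 48.1 and 11.8, and Cldn3 at 302 and 270.2 against 89.2 and 20.4, with adjusted p values for Cldn3 of 0.0751 and 0.0639 without library 1 and library 2 of fMaSC. Krt8 and Krt18 were not called, Krt18 at 606 and 576 RPKM against 879 and 356. Krt19, by contrast, stood at 16.2 and 16.9 RPKM against 386 and 121, and Krt7 at 1.58 and 2.91 against 158 and 62.1, the lowest values of all 8 libraries. The adherens junction cadherin Cdh1 was lower as well, at 35.7 and 39.3 RPKM against 152 and 232. Krt7, Krt19 and Cdh1 thus separated fMaSC from basal cells, and Krt8 and Krt18 did not pass the test.

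Adult genes, lower in fMaSC than in basal and in both luminal populations, took 1.85% and 1.81% of the summed RPKM in fMaSC and 11.5% to 31.9% in adult libraries, a sum that includes Malat1. The rule chose genes low in these same fMaSC libraries, so the smaller share there follows from it. Fewer genes met the rule without library 1 and without library 2 of fMaSC. Leading members were Lgals3, a galectin, at 5.58 and 9.94 RPKM in fMaSC against 510.1 and 261 in basal cells (-5.43 ± 0.44, adjusted p = 9.7e-05), and F3, tissue factor, which starts clotting, at 23.9 and 26.6 against 1016 and 748 (-5.06 ± 0.21, adjusted p = 1.5e-05). Mir17hg, the host transcript of a microRNA cluster, and the noncoding RNA AW112010 were listed at 0 to 0.0543 RPKM in fMaSC and stood at 194 to 807 in basal cells. Fgb, the fibrinogen beta chain, and the defensin Defb1 were listed at 0 in fMaSC, with Fgb at 104 and 80.6 RPKM in basal cells.

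Genes of antigen presentation and defence were mostly lower or not called. Of 19 MHC and antigen processing genes 11 were lower and 1 higher. H2-K1, a class I heavy chain, stood at 50.0 and 54.6 RPKM in fMaSC against 659.6 and 760.0 (-3.73 ± 0.20, adjusted p = 2.5e-05), and its light chain B2m, named after its values were seen, at 156 and 144 against 681 and 409. MHC class I genes are near copies of each other, so reads may have been split among them. Class II H2-Aa was listed at 0 in fMaSC and stood at 38.2 and 9.87 RPKM in basal cells, in which basal library 1 also held more Cd74, at 63.4 against 18.4. Psmb10 ran against the list, at 26.8 and 24.8 RPKM against 16.2 and 6.13, and did not pass without library 1 or library 2 of fMaSC (adjusted p = 0.128 and 0.105). Of 25 interferon-induced genes 9 were lower and 3 higher, beside 23.4% lower and 36.9% higher of all genes tested. Ifit1 stood at 0.318 and 0.0461 RPKM against 8.95 and 9.07, and Ifi27 at 13.1 and 13.7 against 111 and 118. The membrane proteins Ifitm2 and Ifitm1 were higher, Ifitm2 at 539 and 478 RPKM against 186 and 97.1, and Irf1 was not called. With the length trend removed 18 of the 25 were lower and 1 higher, with quantile normalization 15 were lower, and without library 2 of basal cells 16 were lower. Of 15 secreted defence genes 7 were lower and 2 higher, with complement C3 at 16.2 and 10.3 RPKM against 188 and 286, and Lcn2, an iron-sequestering lipocalin, higher at 3160 and 2945 against 1262 and 1030. On that list 1 gene was higher without either fMaSC library, where Lcn2 had adjusted p values of 0.097 and 0.0803, and 5 were higher without library 1 of basal cells.

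Immediate early and clock genes were lower in about as many cases as they were not called. Of 23 immediate early genes 11 were lower and 1, Ier2, higher. Those lower numbered 6 without either fMaSC library and 7 with only the 4 libraries compared, and Ier2 missed the threshold without either fMaSC library or library 2 of basal cells (adjusted p = 0.0535 to 0.103), while 3 were higher without library 1 of basal cells. Klf4 stood at 22.1 and 19.5 RPKM in fMaSC against 317 and 174, and Dusp1 at 84.7 and 86.4 against 944 and 448. Fos, Jun, Egr1 and Atf3 were not called, with changes of -0.68, 0.78, -1.39 and 0.21. Without library 2 of basal cells Fos and Egr1 changed by -1.24 and -2.15. With the length trend removed 17 of the 23 were lower and none higher, Ier2 included, whose change became -0.09. Of 15 clock genes 7 were lower and 1 higher. The repressors Nr1d1 and Nr1d2 stood at 1.43 and 2.07 and at 15.1 and 17.6 RPKM in fMaSC, against 22.4 and 35.4 and 149.8 and 242 in basal cells (-3.42 ± 0.29 and -3.47 ± 0.29, adjusted p = 1.1e-04 for both). Per1, Per2 and Cry2 were lower and Arntl, the activator, was lower too, at 4.72 and 5.04 RPKM against 12.5 and 12.9, while Clock, Per3 and Cry1 were not called. Hlf, a clock output factor, was the 1 called higher, with an adjusted p of 0.0504 without library 2 of fMaSC, and 2 were higher without library 1 of basal cells.

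Signalling genes differed by family. In the FGF and EGF list 7 were higher and 7 lower of 18, beside 36.9% and 23.4% of all genes tested. Without library 1 of fMaSC 4 were higher and 6 lower, without library 2 of fMaSC 4 and 5, and with the length trend removed 7 and 10. Those that missed the threshold without either fMaSC library included Spry4 (adjusted p = 0.145 and 0.176) and Tgfa (adjusted p = 0.0576 and 0.0948), and Spry4 did so also without library 2 of basal cells (0.154) or of mature luminal cells (0.0502). Of the response genes of ERK signalling 4 were higher, with Etv5 at 69.2 and 73.3 RPKM against 7.42 and 6.34 (3.20 ± 0.26, adjusted p = 9.5e-05), Dusp6 at 389 and 412 against 158 and 133, and Etv4 and Spry4 also called, while Spry1 and Spry2 were not called. Of the receptors 3 were lower, with Egfr at 1.63 and 1.94 RPKM against 15 and 32.8 (-3.06 ± 0.38, adjusted p = 4.9e-04), Fgfr3 at 1.12 and 1.21 against 7.55 and 12.1, and Fgfr1 at 50.8 and 60.4 against 159 and 216. Of the EGF family ligands Tgfa was higher, at 42.4 and 53.1 RPKM against 10.4 and 21.5, and Ereg lower, at 0.0831 and 0.599 against 24.2 and 26.6. The ligands Areg and Nrg1 were also lower, and Hbegf was not called. Fgfr2 was not called, at 30.6 and 32.7 RPKM against 95.9 and 115, but passed without either mature luminal library (adjusted p = 9.3e-04 and 9.9e-04), and the receptor gene Erbb3 was higher, at 3.88 and 4.8 RPKM against 0.731 and 0.79.

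In the Wnt list 12 of 28 were lower and 2 higher, and 4 were higher without library 1 of basal cells. Axin2, a feedback target of the pathway, was listed at 0 in fMaSC and in all luminal libraries and stood at 8.18 and 4.68 RPKM in basal cells. The ligands Wnt11 and Wnt5b and the receptor Fzd1 were lower, Fzd1 at 3.75 and 4.04 RPKM against 30.6 and 42.5, and the secreted inhibitor Sfrp1 was higher, at 105 and 110.2 against 16.5 and 16.4 (2.64 ± 0.21, adjusted p = 9.4e-05). Lgr5, Znrf3 and Rnf43, which tune receptor levels, were not called, Lgr5 at 67.3 and 73.3 RPKM against 95.1 and 144. Without library 1 of basal cells Lgr5 changed by -1.03. Among Notch genes the ligand Jag1 was lower, at 26.6 and 36.1 RPKM against 219 and 299, and Notch2 and Dll1 were lower, while the targets Hey1 and Hes1 and the receptor Notch1 were higher, Hey1 at 42.4 and 40.0 against 5.9 and 4.79. Of these 3 only Hey1 passed without library 1 or library 2 of fMaSC, where Hes1 had adjusted p values of 0.0605 and 0.0737 and Notch1 0.142 and 0.151, and Notch1 missed the threshold also without library 1 of basal cells (0.0745). In the BMP and TGF-beta list 8 of 17 were lower and only Bmp7 was higher, at 69.9 and 76.3 RPKM against 11.7 and 12.4, with 2 genes higher without library 1 of basal cells. The antagonists Fst and Smad7 were lower, Fst at 38 and 41.7 RPKM against 493 and 333.

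Of 12 insulin-like growth factor genes 5 were higher and 5 lower, beside 36.9% and 23.4% of all genes tested, and binding proteins went both ways. Igfbp2 and Igfbp4 were higher, Igfbp4 at 45.2 and 46.7 RPKM against 4.86 and 3.51, and Igfbp3, Igfbp5 and Igfbp7 lower, Igfbp3 at 57.6 and 60.9 against 370.5 and 497. The adaptors divided as well, Irs1 higher at 9.81 and 10.5 RPKM against 5.6 and 2.97, and Irs2 lower at 4.86 and 4.17 against 65.5 and 29.6. The receptor gene Igf1r was lower, at 11.8 and 11.9 RPKM against 32.6 and 42.9. Without either fMaSC library 3 genes of the list were higher, and Irs1 (adjusted p = 0.0727 and 0.0879) and Igfbp7 (0.0943 and 0.0809) missed the threshold, Igfbp7 also without library 1 of basal cells (0.0551). In the Hedgehog list Smo, the transducer, was higher, at 22.3 and 20.0 RPKM against 5.29 and 2.76, while the pathway targets Gli1 and Ptch1 stood at 0.159 or less in all 4 libraries.

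Genes of energy and lipid metabolism were mostly higher. Of 78 respiratory chain and ATP synthase genes 70 were higher and 1 lower. Their median change was 1.73, and they took 4.02% and 3.74% of the summed RPKM in fMaSC against 1.62% and 1.56%. Ndufa10, a complex I subunit, stood at 543 and 475 RPKM against 69.9 and 56.6 (2.99 ± 0.23, adjusted p = 8.1e-05). With the length trend removed 50 were higher and 6 lower, with a median of 0.80. Cox6a2, the muscle form of a complex IV subunit, ran against the list, at 0.204 and 0.466 RPKM against 2.48 and 2.49.

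Of 19 glycolysis genes 12 were higher and 3 lower, the median change being 2.27, and 11 and 3 with the length trend removed. The lower genes numbered 1 without library 1 of fMaSC or of basal cells and 5 without library 2 of basal cells. Aldoc stood at 488 and 462 RPKM against 13.3 and 2.65, Tpi1 at 511 and 489.8 against 39.5 and 16.1, and Pfkl at 53.4 and 57.4 against 7.37 and 3.15. Eno1, at 1346 and 1394 RPKM against 31.8 and 20.8, and Gapdh, at 65.7 and 65.2 against 1.55 and 0.81, have many processed copies in the genome, which makes their RPKM uncertain. At the entry to the pathway 2 genes were lower, the hexokinase Hk2 at 10.8 and 13.1 RPKM against 55.6 and 49 (-2.04 ± 0.31, adjusted p = 0.00124) and the glucose transporter Slc2a1 at 62.2 and 62.8 against 123 and 94.4. Slc2a1 missed the threshold without either fMaSC library or library 1 of basal cells (adjusted p = 0.0891 to 0.117). Of 26 sterol and fatty acid genes 19 were higher and 1 lower, the latter not called without either fMaSC library. Nsdhl stood at 52.3 and 54.8 RPKM against 3.22 and 1.31, Fdps at 102 and 101 against 13 and 5.64, and Scd2 at 192 and 209 against 16.1 and 25.6, while Fasn and Acaca were not called.

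Genes of protein synthesis gave fewer calls. Of 81 cytosolic ribosomal protein genes 25 were higher and none lower, beside 36.9% and 23.4% of all genes tested. Their median of 0.42 was near that of all genes. With the length trend removed 1 was higher and 27 lower, with a median of -0.45. The ribosomal genes called higher numbered 4 without library 1 of fMaSC, 10 without library 2 and 9 under median-of-ratios factors. Of 26 nucleolar and ribosome assembly genes 9 were lower and 1 higher, and 3 were higher without library 2 of basal cells and none with any 1 fMaSC or luminal library left out. Odc1, the first enzyme of polyamine synthesis, stood at 214 and 285 RPKM against 724 and 819.8, and Fbl, fibrillarin, at 16.9 and 15.4 against 33.6 and 32. Myc was not called, at 20.4 and 20.6 RPKM against 27.4 and 18.1. Of 26 splicing genes 14 were higher and 1 lower, with Snrpa at 172 and 170.4 RPKM against 28.8 and 14.4. The splicing genes called higher numbered 7 without library 1 of fMaSC and 9 without library 2, and with the length trend removed 10 were higher and 4 lower.

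**Figure D4:**
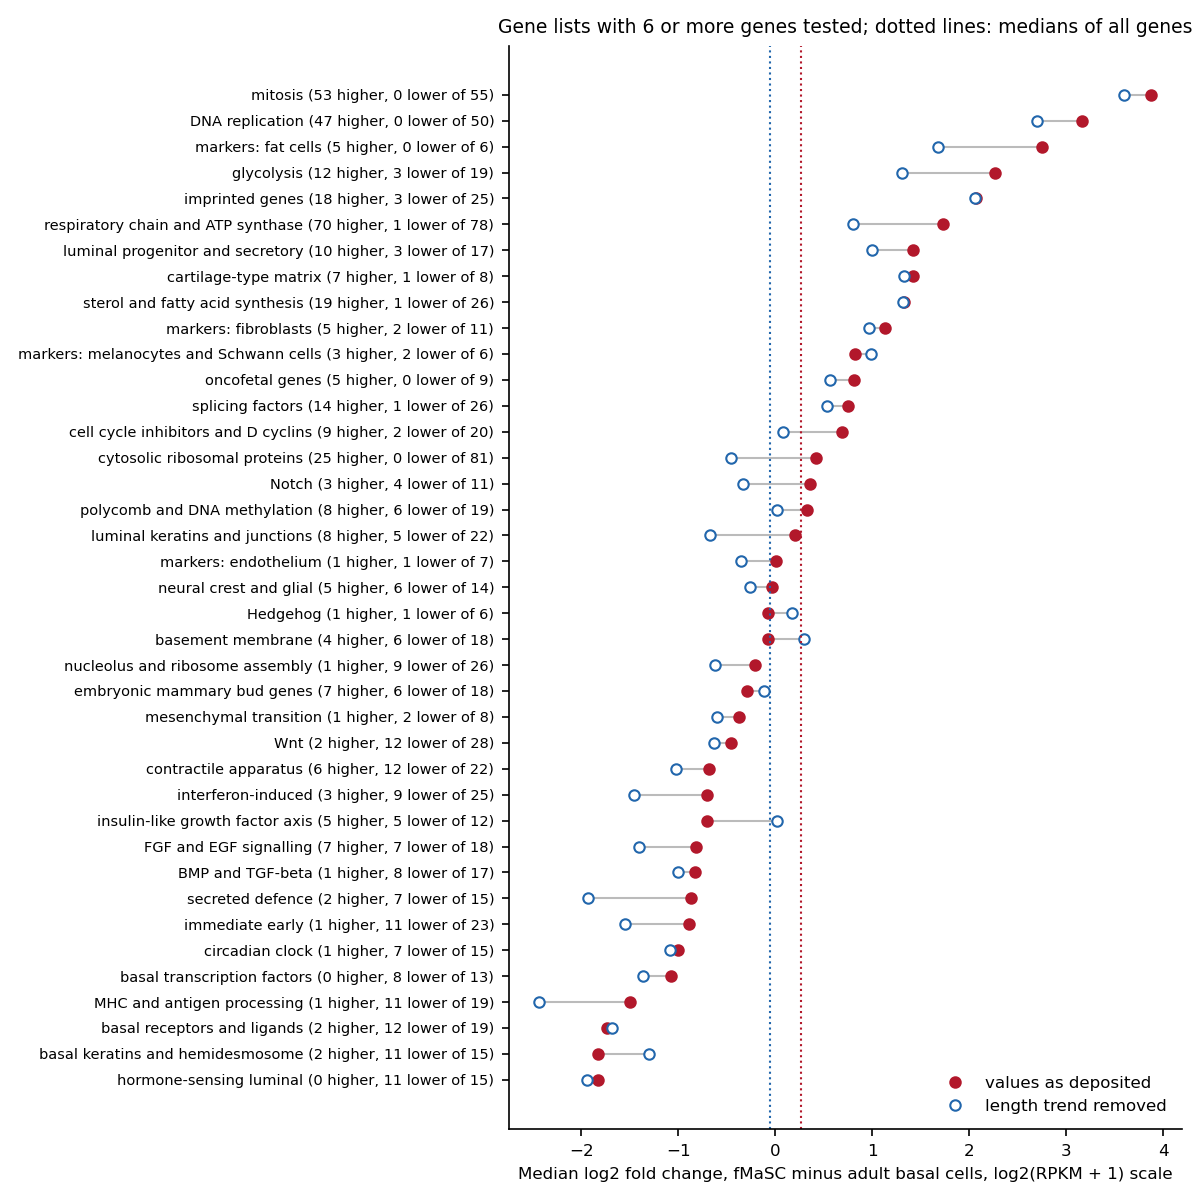
Median log2 fold change of each gene list with at least 6 genes tested (horizontal axis), with values as deposited (filled) and with the length trend removed (open); the counts beside each name are those called with values as deposited, and dotted lines mark the medians of all genes, 0.27 and -0.05. Mitosis and replication lie far to the right under both, while ribosomal proteins cross from 0.42 to -0.45.

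On the neural crest and glial list 5 of 14 genes were higher and 6 lower, beside 36.9% and 23.4% of all genes tested. With Sox10, the factors Tfap2b and Sox6 were higher, Tfap2b at 73.2 and 68.5 RPKM against 20.9 and 24.3, while the nerve growth factor receptor Ngfr and the receptor Ret were lower, Ret at 0.345 and 0 against 10.3 and 31.9. On the mesenchymal transition list Fn1, fibronectin, was higher, at 22 and 22.2 RPKM against 0.984 and 5.92, Cdh2 and Prrx1 were lower, and Vim, Zeb1, Snai1, Snai2 and S100a4 were not called. Without library 1 of fMaSC Cdh2 missed the threshold, and without library 1 of basal cells Zeb1 changed by -1.78. Of 19 basal receptors and ligands 12 were lower and 2 higher, among the lower the surface peptidase Mme, at 2.57 and 2.19 RPKM against 60.5 and 57.2, and Procr, at 1.02 and 1.18 against 15.4 and 21.1. On that list 1 was higher without either fMaSC library and 5 without library 1 of basal cells.

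Markers of other cell types differed between the populations, and their part in the results was not tested. Red cell genes were called higher in 2 of 2 tested, with Hba-a2 at 185 and 174 RPKM in fMaSC and listed at 0 in basal cells. The beta globin copies read 95.3 and 0.699 RPKM for Hbb-bs and 0.882 and 94.6 for Hbb-b1 in libraries 1 and 2 of fMaSC. These are near-identical copies, each high in the library in which the other was near 0, and the cause was not tested. The red cell gene Slc4a1 was listed at 0, and the whole list summed to 0.0615% and 0.0589% of the RPKM in fMaSC. Fat cell genes were higher in 5 of 6 tested, with Car3 at 86.4 and 78.9 RPKM against 0.191 and 0, Retn at 17.2 and 14.3 against 0 and 0, and Adipoq at 5.04 and 4.87, but Lep and Pck1 at 0.017 or less. The red and fat cell lists hold 10 and 9 genes. Passing the filter through the 2 fMaSC libraries alone favours rises in both counts. The fat list summed to 0.0416% and 0.038% of the RPKM in fMaSC and 0.0124% and 0.0455% in basal cells, the latter carried by Fabp4. Pigment cell genes Dct, Pmel and Tyr were higher, Dct at 17.9 and 22.9 RPKM and listed at 0 in basal cells, while Mlana and Tyrp1 stood at 0.264 or less. That list, with its glial genes, summed to 0.0092% and 0.0107% in fMaSC and 0.0318% and 0.051% in basal cells.

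Fibroblast genes were higher in 5 and lower in 2 of 11. Col1a1 stood at 8.58 and 9.79 RPKM in fMaSC against 0.937 and 0.399, and Col3a1 at 18.6 and 24 against 1.4 and 1.48, whereas Postn stood at 29.5 and 34.7 against 467 and 590.4 and Dcn at 14.7 and 15.2 against 49.7 and 50.0. The list summed to 0.0224% and 0.0269% in fMaSC and 0.0998% and 0.13% in basal cells. Of the 2 lower genes 1 remained called without any single fMaSC, basal or luminal progenitor library, and Dcn (adjusted p = 0.0489) was the one lost. Leukocyte genes were higher in 1 and lower in 2 of 5, and endothelial genes 1 and 1 of 7. Without library 1 of basal cells 3 leukocyte genes were higher and 3 endothelial genes lower, without library 2 of basal cells 2 endothelial genes were higher, and without either fMaSC library no leukocyte gene was higher. Ptprc, the pan-leukocyte gene, was listed at 0 in fMaSC and at 0.226 and 0.364 RPKM in basal cells. Emcn, an endothelial gene, stood at 0.462 and 25.1 RPKM in the 2 basal libraries and at 2.85 and 3.46 in fMaSC. The leukocyte list summed to 0.00235% and 0.00253% in fMaSC and 0.0159% and 0.00426% in basal cells, and Lyz2, a macrophage gene, read 57 and 0.702 RPKM in the basal libraries, so that its change was 1.67 without library 1 and -3.42 without library 2. No skeletal muscle gene reached the filter, and of suprabasal skin and pericyte genes 2 and 3 were tested and none called, though 1 skin gene was higher without library 2 of basal cells and in each case 1 pericyte gene without either basal or either luminal progenitor library. Xist, the RNA of the inactive X chromosome, stood at 70.5 and 69.5 RPKM against 360.0 and 354, and 4 genes of the Y chromosome were listed at 0 in all 8 libraries.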

How the data were processed

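RNA was sequenced from 8 normal mammary libraries, 2 of each of 4 sorted populations. Per the labels' protocols, full-length cDNA from polyA RNA of about 2000 cells was made with SmartSeq2, amplified with 18 PCR cycles and, after Nextera XT tagmentation, 10 more, and read as 50 or 75 bp single ends. No molecular identifiers or strand marking are given. The RPKM values were deposited by the authors in 1 table. The submitters' processing notes name FastQC, HISAT2 2.0.5, StringTie 1.3.1c and build mm9, and the annotation is not given in the sources used here. Without counts the absolute depth is unknown. The tumour tables were not used here.

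Genes with at least 1 RPKM in at least 2 of the 8 libraries were tested. The log2(RPKM + 1) values were fitted by limma (version 3.58.1, R 4.3.3) with an intensity trend and all 4 populations in the fit, which share 1 estimate of the spread. Tests were two-sided, with Benjamini-Hochberg adjustment over all genes tested. P-values rest on 2 libraries a population and measure only the spread between them, which may be technical. Components were set by these contrasts with a change of at least 1. Genes were named as the 15 largest rises and falls, the 10 leading genes of each component and up to 6 members of each list in either direction, with members not called or moving against their list. Some genes are on more than 1 list. The populations compared and the gene lists were chosen with earlier results of these data known. Transcript lengths are those of the longest GENCODE transcript, found for 99.4% of genes tested, and promoters are RefSeq's. The fit was tested on simulated data in which a gene had the same spread in every population, unlike the libraries here. The alternatives were another pseudocount, no filter, other scalings, no variance trend, only 4 libraries, a replicate block, leaving out each of the 8 libraries and removal of the length trend. Single values of some list members are not reported here.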

Additional observations from a re-analysis of the deposited data

How the results depend on the processing

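The counts of higher, lower, basal lineage and luminal-shared genes stayed within 1.5 times of their reported values under another pseudocount, no filter, other scalings and no variance trend. With only the 4 libraries compared in the fit, 3861 genes were higher and 2402 lower, and the other counts need the luminal libraries. Fetal genes numbered 1267 under quantile normalization and 1355 under median-of-ratios factors, and adult genes 1052 and 892. Removing the length trend, an alternative chosen after seeing the data, gave 1153 fetal and 984 adult genes, and why length matters was not tested. Leaving out each of the 8 libraries in turn, the luminal ones also chosen after seeing the data, gave 3255 to 5121 higher, 1896 to 3281 lower, 1579 to 2190 fetal, 368 to 636 adult, 1171 to 1924 basal lineage and 848 to 1798 luminal-shared genes. Lower and adult genes were fewest without library 1 of fMaSC and nearly as few without library 2 of fMaSC, and the cause was not tested.

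With a replicate block 4674 genes were higher, 2965 lower, 2129 fetal, 574 adult, 1595 basal lineage and 1294 luminal-shared. Deviations of same-numbered libraries correlated at 0.00 between fMaSC and basal cells. They correlated at 0.11 between basal cells and luminal progenitors, 0.22 between basal and mature luminal cells and 0.00 to 0.07 in the other 3 pairs. Whether same-numbered libraries were paired cannot be told from these values, and the labels do not say which animals stand behind a library. Of 250 genes named, 199 were called; 197 of these kept their sign under every alternative run and 172 kept their call. With 1 library left out 26 called genes missed the threshold at least once and 23 others passed, among these Ccnf, Cdc7, Cd24a and Ifitm3 without library 2 of basal cells, Pttg1, Tfap2c and Emcn without library 1 of basal cells and Slbp without either library of luminal progenitors. With the length trend removed Epcam changed by -0.07 and Ier2 by -0.09, and Pttg1 (-0.61) and Trps1 (0.67), not called in the reported fit, passed. Oxtr changed by 0.73 without library 1 of basal cells and by -1.39 without library 2, and Lyz2 by 1.67 and -3.42. A fit with 1 library left in a population does not measure the spread of that population. Low genes are limited by the unknown depth.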
